A study of Homo sapiens with 9 samples.

Results

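LNCaP cells, an established line grown from a prostate cancer metastasis (clone FCG, given as wild type in the labels), were compared after 48 h with androgen and after 48 h with vehicle. Both groups had first been kept for 24 h in phenol red-free medium with 10% charcoal-stripped serum, which holds little steroid of its own. The androgen group then received 10 nM of the agent, which the labels name DHT and the main text of the study names R1881, and the vehicle group received 0.01% ethanol. Each group held 3 libraries of poly(A)-selected mRNA, 6 of the 9 libraries of the series. The methods speak of an experimental batch and, in general, of independent experiments, but neither they nor the labels tie these 6 libraries to batches or to separate cultures, so the p-values below measure the spread between these libraries, which may be technical. LNCaP is 1 line, and the values describe its cells alone.

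Of 28216 genes in the deposited table, the 11697 with more than 3 CPM (normalised counts, scaled by library size) in at least 3 of the 6 libraries were tested. The libraries held between 17397706 and 23460708 counts on genes, which places the upper limit for a count of 0 (3 counts) between 0.128 and 0.172 CPM. The 8 luminal prostate markers summed to between 10806 and 11779 CPM with androgen and between 3703 and 4143 CPM with vehicle. None of 4 basal markers reached the filter, and all 3 leukocyte markers stayed at or under 3 counts in every library. Of 4 fibroblast markers 1 reached the filter, COL1A1, and of 3 endothelial markers 1, VWF. The fibroblast markers summed to between 12.2 and 15.2 CPM with androgen and between 21.3 and 24.7 CPM with vehicle. The endothelial markers summed to between 6.67 and 7.91 CPM with androgen and between 16.3 and 18.3 CPM with vehicle. Which cells these transcripts came from was not tested. The 8 markers of the PC3 line, sequenced in the same series, summed to between 29.5 and 57.5 CPM with androgen and between 22.9 and 32.9 CPM with vehicle, at most 0.995% of their level in PC3 cells. Their highest sum was in androgen replicate 1. Without replicate 1 of both groups 1243 of 11169 tested genes were called, against 1641 with all libraries. Smaller groups alone also lower the count, as leaving out any 1 library gave 1404 to 1551 calls. The cause of the drop was not tested.

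Androgen enters the cell, binds a nuclear hormone receptor and is carried with it to DNA, where the receptor sits on response elements and changes transcription of nearby genes. In the luminal cell of the prostate, the genes under this control make the proteins of seminal fluid, the machinery that folds and exports them, and the lipids and citrate for which the gland is known. In LNCaP cells the hormone also acts on proliferation, and the direction depends on its dose and on the time of exposure.

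Below, "rose" and "fell" mean an adjusted p-value under 0.05 in the quasi-likelihood F test of edgeR, and "called" adds a fold change of at least 2. CPM are scaled with TMM factors, and log2 fold changes are androgen minus vehicle. A number in parentheses after a gene, without a unit, is its log2 fold change. Of the genes tested, 765 (6.54%) were called higher with androgen and 876 (7.49%) lower, together 1641 (14.0%). By the adjusted p-value alone 4345 genes (37.1%) rose and 4418 (37.8%) fell, with a median log2 fold change of -0.01 over all genes. When library totals were used without TMM factors, the median moved to -0.16, and 608 genes were called higher against 1099 lower. Counts of whole lists are therefore given with both scalings where the lead of one direction was lost or turned, or where a count printed moved by over 1.5 times. In bulk RNA, fewer cells of a kind and less RNA per cell cannot be told apart.

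The plot of gene lists, a chosen part of those counted, gives an outline of the response. Lists for DNA replication, mitosis and repair by recombination had members almost only below 0, while lists for secreted prostate proteins, cholesterol synthesis and traffic between the endoplasmic reticulum (ER) and the Golgi lay mostly above 0.

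**Figure D1:**
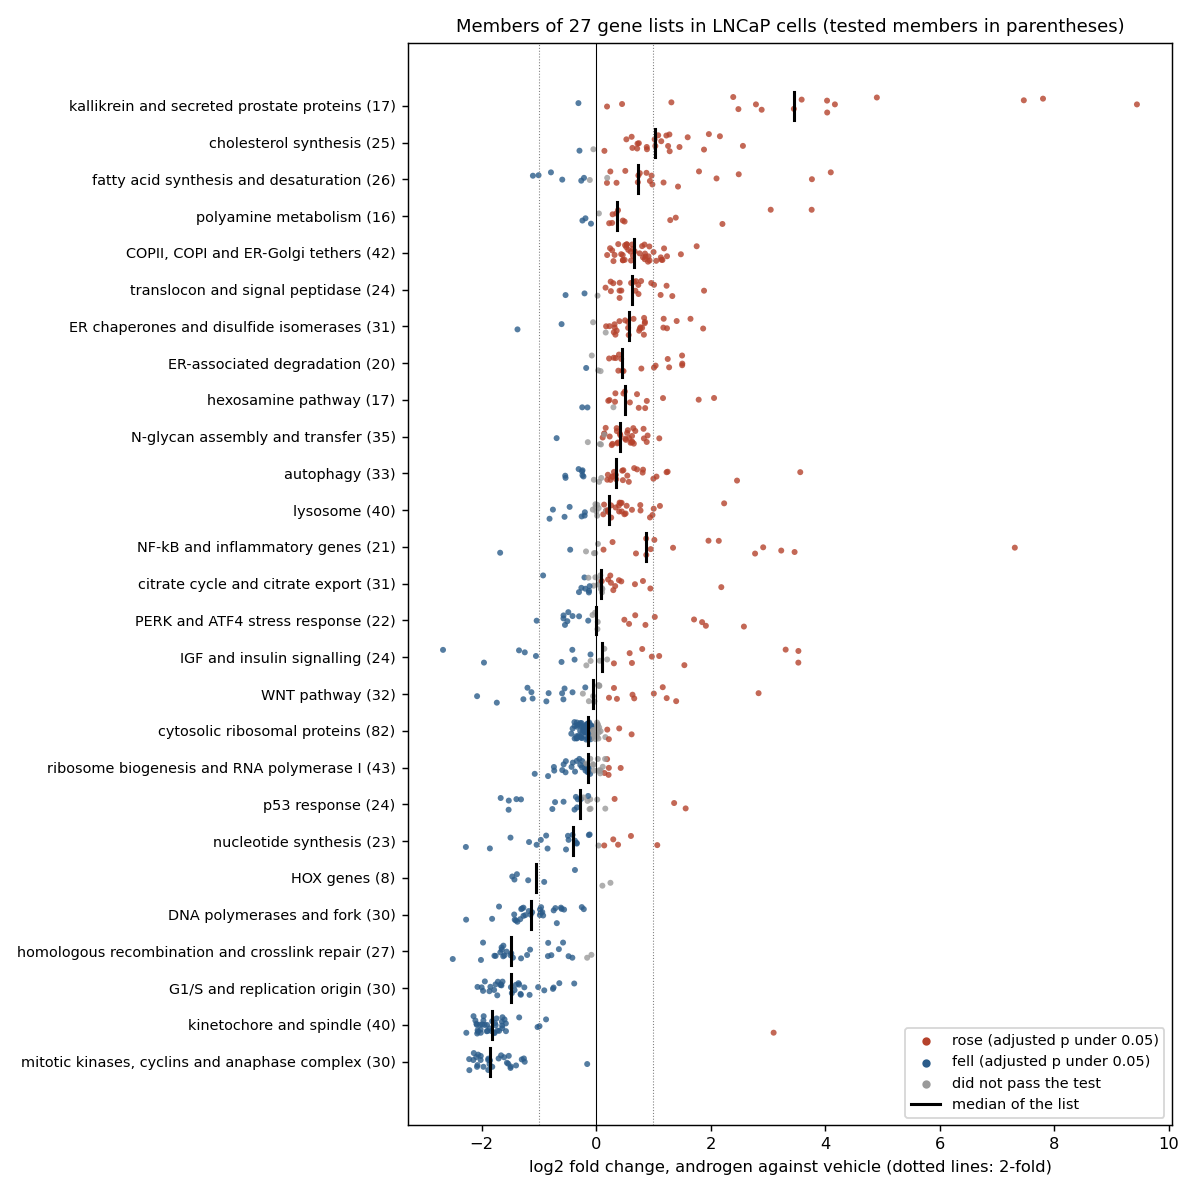
Log2 fold change (androgen minus vehicle, x axis) of each tested member of 27 gene lists (rows), with 1 point per gene, coloured by whether it rose, fell or did not pass the test, and the list median as a bar. The 17 secreted prostate proteins had the highest median, at 3.45, and the 30 mitotic kinases and cyclins the lowest, at -1.86.

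Among called genes above 3 CPM in every library, the largest rise was that of MAF, a basic leucine zipper factor (6.27), and FKBP5, a co-chaperone of steroid receptors (4.90), AGR2, S100P and ERRFI1 were also among the 12 largest. AGR2, a disulfide isomerase of the ER in secretory epithelia, had 79.2, 66.7 and 82.8 CPM with androgen and 4.70, 3.55 and 4.14 CPM with vehicle. S100P, a calcium-binding protein, had 148, 122 and 74.6 CPM with androgen and 7.63, 5.73 and 5.81 CPM with vehicle. ERRFI1, an inhibitor of growth factor receptors of the ERBB family, had 825, 1032 and 761 CPM with androgen and 44.2, 43.9 and 43.5 CPM with vehicle. In AGR2, S100P and ERRFI1 every androgen library lay above every vehicle library, with log2 fold changes of 4.20, 4.17 and 4.31. At the other end, ATP1B1, the beta subunit of the sodium pump, went from 904, 1127 and 931 CPM with vehicle to 69.4, 73.4 and 89.5 CPM with androgen. Its log2 fold change was -3.67 (SE 0.10, adjusted p = 3.39e-12 in edgeR), and the groups lay far apart. Other large falls were those of MMP16, a membrane-bound metalloproteinase (-4.20), COLEC12, a scavenger receptor (-3.43), GASK1B, a Golgi-associated protein (-3.37), and LRRN1, a neuronal leucine-rich repeat protein (-3.36).

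Some genes were at or near the floor in 1 group. KRT6B, a keratin of stratified epithelia, had 0 counts in the 3 vehicle libraries and 347 in the androgen libraries, at least 106-fold higher with the floor of 3 counts taken over the group. LRRTM3, a synaptic membrane protein, had 0 counts with androgen and 294 with vehicle, at least 107-fold lower. SLC2A3, a glucose transporter of high affinity, had 1 count with vehicle and 865 with androgen, a ratio of 791 (95% counting interval 142 to 31280). SLC38A4, a transporter of neutral amino acids, had 2 counts with vehicle and 953 with androgen, a ratio of 436 (120 to 3604). PDE3A, a phosphodiesterase of cyclic nucleotides, had 2 and 616 counts, a ratio of 282 (77.7 to 2331). RNLS, a flavin-dependent oxidase, had 1 count with androgen and 220 with vehicle, 241-fold lower (42.7 to 9544). These intervals cover counting error only.

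Secreted prostate proteins and their partners formed the list with the highest median. Of 17 tested members, 16 rose and 14 were called higher, where 6.54% of all genes were, and the median log2 fold change was 3.45. Genes low with vehicle, such as STEAP4, reached the filter through the androgen libraries alone, so that they could hardly fall. Without any 1 of the androgen libraries 13 members rose. The member that fell was FOLH1, the prostate-specific membrane antigen (-0.31). KLK2, a kallikrein protease of seminal fluid, had 649.9, 675 and 760.3 CPM with androgen and 32.5, 49.9 and 33.7 CPM with vehicle. Every androgen library stood far above every vehicle library. KLK4, a further kallikrein, had a log2 fold change of 2.39, and AZGP1, a zinc-binding glycoprotein of seminal plasma, of 3.59. STEAP4, a metalloreductase, went from 0.105, 0.109 and 0.455 CPM to 136, 179 and 174 CPM, while its relatives STEAP1 (0.45) and STEAP2 (0.19) rose far less, and STEAP2 no longer passed the test with library totals in place of TMM factors. ORM1 and ORM2, plasma proteins of the acute phase, had 4, 0 and 1 and 2, 1 and 3 counts in the vehicle libraries and 378, 438 and 489 and 416, 372 and 443 counts in the androgen libraries. Both lie next to each other on chromosome 9 (GRCh38, GENCODE 44), at chr9:114323098-114326479 and chr9:114329869-114333251. Of the 74-nt stretches of their transcripts, 36.5% and 42.0% also occur in other genes, so the split of reads between them is uncertain.

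The promoters of KLK3 and KLK2 are shown because both genes are classical targets of androgen and lie side by side on chromosome 19. The sequences are 300 bases from RefSeq on GRCh38.p14, both on the plus strand, with 250 bases before the start of the gene and 50 after it, at chr19:50854665-50854964 for KLK3 and chr19:50873189-50873488 for KLK2. Capitals mark the best match to an androgen response element, taken as AGAACA and TGTTCT separated by 3 bases with at most 3 mismatches on either strand.
KLK3: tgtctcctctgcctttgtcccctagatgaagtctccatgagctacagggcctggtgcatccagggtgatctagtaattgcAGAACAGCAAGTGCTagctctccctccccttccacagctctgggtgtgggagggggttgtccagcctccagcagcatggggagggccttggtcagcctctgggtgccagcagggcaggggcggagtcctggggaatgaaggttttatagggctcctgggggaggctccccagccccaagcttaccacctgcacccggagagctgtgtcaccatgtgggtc
KLK2: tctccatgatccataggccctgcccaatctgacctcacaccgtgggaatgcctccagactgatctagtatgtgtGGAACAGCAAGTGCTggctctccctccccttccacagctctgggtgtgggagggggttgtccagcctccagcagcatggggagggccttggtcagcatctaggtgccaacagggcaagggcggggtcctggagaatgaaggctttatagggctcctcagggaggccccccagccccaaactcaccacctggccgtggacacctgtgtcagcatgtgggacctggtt
In KLK3 the match begins at -170 with 2 mismatches and in KLK2 at -176 with 3, counted from the first base of the gene as 1. Both windows share an identical run of 80 bases, from -154 to -75 in KLK3 and from -160 to -81 in KLK2. A match of this kind was present in 5.39% of the 9514 tested genes with a promoter in the RefSeq table, and it is a description of letters, not of binding.

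Enzymes of androgen metabolism moved in opposite directions within 1 family. UGT2B enzymes join glucuronic acid to steroids so that they can leave the cell. UGT2B11 rose (5.25) and UGT2B15 fell (-5.33). UGT2B28 had 193, 155 and 155 CPM with androgen and 1.41, 0.982 and 1.52 CPM with vehicle, with no overlap (log2 fold change 6.99). UGT2B10 fell from 4.81, 4.37 and 6.62 CPM to 1.53, 1.33 and 1.75 CPM (-1.78). Of the 74-nt stretches of their transcripts, 16.7% in UGT2B11, 18.2% in UGT2B15, 15.0% in UGT2B28 and 11.9% in UGT2B10 also occur in other genes, so the split of reads among them is uncertain there. HSD17B11, a 17-beta-hydroxysteroid dehydrogenase, rose by a log2 fold change of 2.02, and SRD5A1, a steroid 5-alpha-reductase, by 0.77. Over the 14 members of the list 8 rose and 3 of the 4 that fell were called lower.

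Of 17 transcription factors of the luminal lineage, 10 rose, 4 fell and 8 were called higher, where 6.54% of all genes were. The median was 0.78. HES6, a relative of the Notch-controlled repressors, had 563, 664 and 488 CPM with androgen and 52.8, 66.9 and 60.7 CPM with vehicle. SPDEF, an ETS factor of secretory epithelia (2.37), KLF5 (2.19) and KLF4 (2.43), both zinc finger factors of epithelia, were called higher. GATA2, which opens chromatin for steroid receptors, fell from 292, 297 and 286 CPM to 124, 126 and 127 CPM. FOXA1, the pioneer factor of this lineage, had a log2 fold change of 0.02 that did not pass the test, and -0.13, past it, with library totals in place of TMM factors. The chaperones that hold steroid receptors in a form able to bind hormone showed small differences: 7 of 17 rose and 4 fell, and the median was 0.05. With library totals in place of TMM factors, 3 rose and 8 fell. HSP90AA1, the inducible HSP90 gene, fell by 0.51 on the log2 scale.

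Genes of DNA replication were lower with androgen. All 30 genes of the G1/S transition and of replication origins fell, 25 of them at least 2-fold, where 7.49% of all genes did, with a median of -1.48. All 30 DNA polymerases and replication fork genes fell as well, 16 of them at least 2-fold, with a median of -1.13. MCM2, a subunit of the helicase that opens the replication fork, had 232, 186 and 228 CPM with vehicle and 56.9, 66.8 and 67.7 CPM with androgen. The highest androgen library stood far below the lowest vehicle library, and the log2 fold change was -1.76 (SE 0.08, adjusted p = 7.11e-10 in edgeR). CCNE2, the cyclin of S phase entry (-1.94), TICRR, which fires origins (-2.07), PCNA, the sliding clamp (-1.40), and TOP2A, which untangles DNA (-2.27), were called lower. Of 23 enzymes of nucleotide synthesis 17 fell and 5 rose. TK1, thymidine kinase, had 174, 157 and 173 CPM with vehicle and 30.4, 36.6 and 37.3 CPM with androgen. TYMS, thymidylate synthase (-1.86), and RRM2, a ribonucleotide reductase subunit (-1.50), were called lower, whereas IMPDH1, of guanine nucleotide synthesis, was called higher (1.07).

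Lists of mitosis genes had lower medians than those of replication. All 30 mitotic kinases, cyclins and members of the anaphase-promoting complex fell and 29 were called lower, where 7.49% of all genes were. The median was -1.86. PLK1, a kinase of mitotic entry, had 119.7, 111 and 116 CPM with vehicle and 22.7, 30.6 and 29.4 CPM with androgen. PTTG1, securin, had a log2 fold change of -2.22, CCNB2, a mitotic cyclin, of -2.14, and FOXM1, a factor that drives mitotic genes, of -2.09. PBK, a mitotic kinase, had the largest fall of the list (-2.22). Of 40 kinetochore and spindle genes, 39 fell and 37 were called lower, with a median of -1.82. KNL1, the scaffold of the outer kinetochore, fell from 62.2, 54.6 and 64.5 CPM to 10.9, 14.1 and 12.9 CPM. CENPF, a kinetochore protein of G2 and mitosis, had 194, 199.8 and 209 CPM with vehicle and 37.4, 54.7 and 50.5 CPM with androgen.

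CENPN, which reads centromeric nucleosomes, was the exception among these 40 genes. It had 959, 894 and 937 CPM with androgen and 112, 103 and 110.2 CPM with vehicle, and the groups lay far apart. Its log2 fold change was 3.10 (SE 0.05, adjusted p = 3.18e-14 in edgeR). The gene lies at chr16:81006552-81033114 on the plus strand, and 12.6% of its exon bases are shared with exons of other genes on that strand, so reads there cannot be assigned to it alone. The plot of cell cycle genes by library shows the 3 libraries of each group close together for every gene. Among its replication and mitosis genes, CENPN alone lies on the other side. The plotted inhibitors CDKN2B (3.12) and CDKN1C (1.60) and the histone gene H2BC21 (1.87) were higher with androgen too.

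**Figure D2:**
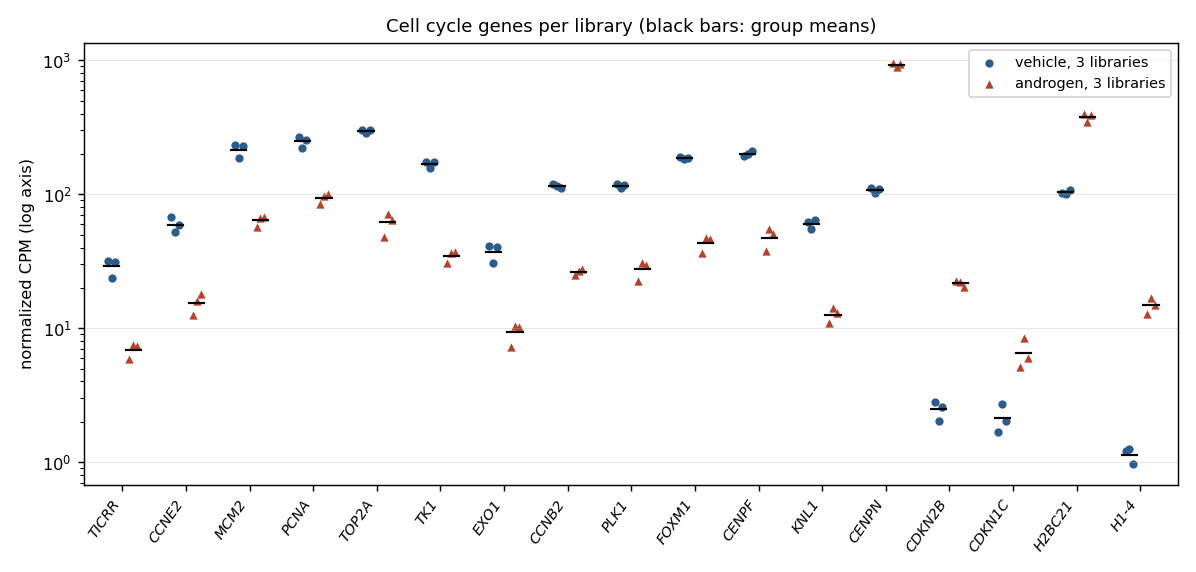
CPM (log scale) of replication, mitosis, cell cycle inhibitor and histone genes in each of the 3 androgen and 3 vehicle libraries, with 1 point per library and group means as bars. Androgen libraries lie below vehicle libraries for the replication and mitosis genes, except CENPN, where they reach 959 CPM.

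The promoters of CENPF, CENPN and MCM2 are printed to show the letters in which cell cycle genes are rich. Capitals mark CHR elements, CCAAT boxes and E2F sites. The CHR element was searched as TTTGAA and the CCAAT box by the letters of its name. For E2F sites, the search took TTTGGCGC, TTTCGCGC and TTCCCGCC, and for all 3 motifs it covered both strands of the 300 bases. The windows lie on GRCh38.p14 at chr1:214602945-214603244, chr16:81006964-81007263 and chr3:127598161-127598460, all on the plus strand. They are set by the RefSeq start, from which the positions below are counted. The CENPN window lies inside the GENCODE span of that gene given above, which begins further upstream, at chr16:81006552.
CENPF: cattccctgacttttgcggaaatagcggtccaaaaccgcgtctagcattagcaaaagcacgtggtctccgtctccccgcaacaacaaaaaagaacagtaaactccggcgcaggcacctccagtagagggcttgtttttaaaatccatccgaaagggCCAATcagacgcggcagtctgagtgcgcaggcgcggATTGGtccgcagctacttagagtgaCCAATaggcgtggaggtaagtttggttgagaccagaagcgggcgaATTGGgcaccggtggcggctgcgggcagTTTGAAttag
CENPN: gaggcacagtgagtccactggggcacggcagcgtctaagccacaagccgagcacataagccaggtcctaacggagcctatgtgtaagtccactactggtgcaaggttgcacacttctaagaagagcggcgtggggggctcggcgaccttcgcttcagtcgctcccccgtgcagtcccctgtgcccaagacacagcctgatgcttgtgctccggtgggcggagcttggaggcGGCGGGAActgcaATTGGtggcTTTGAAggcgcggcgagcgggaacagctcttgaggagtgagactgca
MCM2: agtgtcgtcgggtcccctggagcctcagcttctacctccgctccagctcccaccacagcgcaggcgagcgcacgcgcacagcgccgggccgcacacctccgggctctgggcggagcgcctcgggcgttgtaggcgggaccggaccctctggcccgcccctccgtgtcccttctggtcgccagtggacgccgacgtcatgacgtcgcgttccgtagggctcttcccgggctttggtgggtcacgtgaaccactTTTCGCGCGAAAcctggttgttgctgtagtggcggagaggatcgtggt
CENPF holds a CHR element at 41 and CCAAT boxes at -94, -58, -33 and 13. CENPN, which rose, holds a CHR element at 4, a CCAAT box at -6 and an E2F site at -19. MCM2 holds 2 overlapping E2F matches that begin at 3 and 7. Over all 9514 promoters, 7.44% held an E2F site, 9.17% a CHR element, 37.6% a CCAAT box and 3.99% both of the last. Of 25 G1/S promoters in the table, 60.0% held an E2F site, and of 25 promoters of polymerases and fork genes 40.0%. Of 34 kinetochore promoters, 70.6% held a CHR element, 52.9% a CHR element with a CCAAT box and 26.5% an E2F site. Promoters were matched for at least 80% of the members of each list named here or below, and lists below that share, such as the mitotic kinases, were left out.

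Repair by homologous recombination followed the same direction. Of 27 genes of this list and of crosslink repair, 25 fell, 0 rose and 18 fell at least 2-fold, where 7.49% of all genes did. The median was -1.48. EXO1, an exonuclease that resects DNA ends, had 40.8, 30.7 and 40.4 CPM with vehicle and 7.25, 10.4 and 10.3 CPM with androgen. POLQ, of polymerase theta end joining (-1.78), XRCC2, a further recombination gene (-1.76), and RAD54L, which remodels recombining DNA (-1.67), were called lower. Of 24 genes that cells are known to induce under stress such as DNA damage, with roles in arrest, repair and death, 14 fell and 3 rose, with a median of -0.29. DDB2, which finds ultraviolet lesions (-1.67), and SESN1, a stress-inducible regulator of growth (-1.53), fell, whereas TNFRSF10B, a death receptor, rose (1.56).

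Inhibitors of the cell cycle did not share 1 direction. Of 19 inhibitors, pocket proteins and their partners, 13 fell and 6 rose. Without androgen replicate 2, 3 rose, as 2 of the others no longer reached the filter on low counts. CDKN2B, an inhibitor of the cyclin D kinases, had 22.4, 22.2 and 20.3 CPM with androgen and 2.82, 2.02 and 2.58 CPM with vehicle. Its mean in PC3 cells was 249 CPM, and 0.995% of that level is 2.48 CPM. CDKN1C, a broad inhibitor of cyclin-dependent kinases, rose by a log2 fold change of 1.60, and CDKN1A rose by 0.32 but no longer passed the test with library totals in place of TMM factors. CDKN1B fell (-0.39), as did CDKN2C (-1.75), both inhibitors of these kinases. CCND1, cyclin D1, fell from 423, 394 and 388 CPM to 324, 322 and 299.6 CPM.

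Histone genes, in contrast, were mostly higher. Of 26 tested, 18 rose and 6 fell, with a median of 0.69. H2BC21 had 395, 345 and 393 CPM with androgen and 102, 101 and 107 CPM with vehicle, and H1-2, a linker histone, had a log2 fold change of 1.18. H2AX, the variant phosphorylated at DNA breaks, fell from 285, 244 and 262 CPM to 84.6, 96.9969 and 99.8 CPM. The libraries were selected for poly(A) tails, which most replication-dependent histone mRNAs lack, so these values cover only their tailed forms.

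Most genes of the path of secreted proteins rose. Proteins bound for export enter the ER through the translocon, fold with the help of chaperones and disulfide isomerases, receive sugar chains and travel to the Golgi in coated vesicles. Of 24 genes of the translocon, signal recognition particle and signal peptidase, 21 rose and 2 fell, with a median of 0.63. SEC11C, a catalytic subunit of signal peptidase, had 363, 310.1 and 347 CPM with androgen and 91.7, 91.4 and 93.3 CPM with vehicle. The groups did not overlap, and the log2 fold change was 1.88. SRP19 (1.33) and SRP9 (-0.53), both parts of the signal recognition particle, moved in opposite directions.

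Of 31 ER chaperones and disulfide isomerases, 27 rose and 2 fell, with a median of 0.57. DNAJB9, a co-chaperone of the ER, had 61.5, 52.8 and 45.6 CPM with androgen and 20.4, 17.4 and 13.3 CPM with vehicle. ERO1A, the oxidase that recharges disulfide isomerases (1.87), PDIA5, a disulfide isomerase (1.41), and DNAJC3, a co-chaperone that also inhibits a stress kinase (1.24), were called higher. FKBP7, a prolyl isomerase of the ER, fell from 4.91, 6.49 and 4.95 CPM to 1.67, 2.51 and 2.15 CPM. Of 20 genes of ER-associated degradation, which removes misfolded proteins, 16 rose, and HERPUD1, a part of this machinery, had 277, 306 and 262 CPM with androgen and 101, 104 and 92.6 CPM with vehicle. The list for the stress response through PERK and ATF4 was split, with 9 of 22 that rose and 9 that fell. ATF4 (-0.06) and DDIT3 (0.03), its central factors, did not pass the test, though ATF4 was lower (-0.22) with library totals in place of TMM factors. ATF3, a stress-inducible factor, rose (1.71), and PHGDH, the first enzyme of serine synthesis, fell (-1.04).

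The promoter of DNAJB9 is printed as an example from the chaperones, at chr7:108569624-108569923 on the plus strand of GRCh38.p14. Capitals mark CCACG, the second part of the ER stress element, and the CCAAT box with which that element begins.
DNAJB9: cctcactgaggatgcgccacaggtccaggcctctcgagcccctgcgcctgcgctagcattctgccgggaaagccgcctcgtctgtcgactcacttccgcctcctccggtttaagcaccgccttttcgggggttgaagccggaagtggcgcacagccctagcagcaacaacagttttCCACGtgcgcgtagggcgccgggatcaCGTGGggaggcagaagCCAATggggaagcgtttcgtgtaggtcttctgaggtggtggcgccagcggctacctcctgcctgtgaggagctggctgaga
CCACG matches begin at -74 on the plus strand and at -47 on the minus strand, and the CCAAT box at -31 on the plus strand. Neither CCACG match follows the CCAAT box in the order of the element, so the window holds its letters but not the whole element. CCACG was found in 71.4% of 28 chaperone promoters and in 83.3% of 36 promoters of coat and tether genes, against 51.1% of all promoters. A CCAAT box was found in 75.0% of the chaperone promoters and in 37.6% of all.

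All 42 genes of the COPII and COPI coats and of the tethers between ER and Golgi rose, where 37.1% of all genes did, with a median of 0.66. With library totals in place of TMM factors, 40 rose and 0 fell. Most differences were modest, and 9 genes were called higher, where 6.54% of all genes were. SEC24D, a cargo adaptor of the COPII coat, had 102, 95.8 and 101 CPM with androgen and 35.5, 34.0001 and 37.5 CPM with vehicle. MIA3, which loads bulky cargo such as collagen, had 729, 715 and 743 CPM with androgen and 313, 324 and 324 CPM with vehicle. In both genes the groups did not overlap. KDELR3, a receptor that returns ER proteins (1.76), and ARFGAP3, which uncoats COPI vesicles (1.24), were called higher. The cargo receptors of the TMED family rose in 8 of 9 cases, with a median of 0.67.

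**Figure D3:**
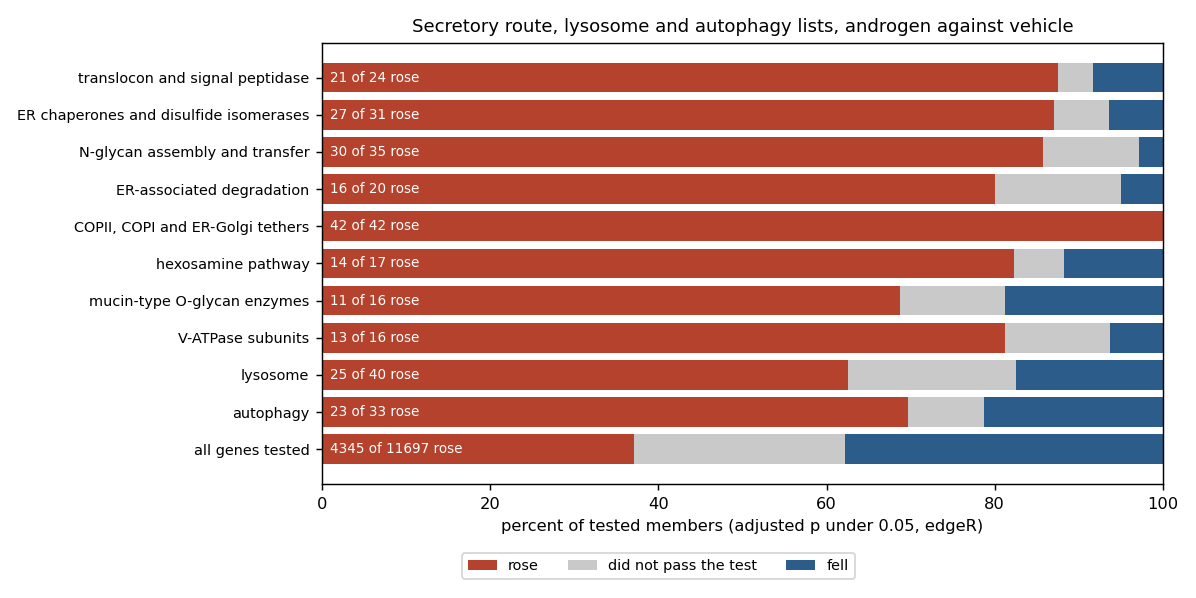
Percent of the tested members of each list (x axis) that rose, fell or did not pass the test, for 10 lists of the secretory route, the lysosome and autophagy (rows, without the list for PERK and ATF4), above the same for all 11697 genes tested. All 42 coat and tether genes rose, and the lowest share among the 10 lists plotted was that of the lysosome, with 25 of 40.

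Sugar chains had the same direction at their source. Of 35 genes that build and transfer the N-linked chain, 30 rose, though only 1 was called, GMPPA, of GDP-mannose supply (1.10). Of 17 genes of the hexosamine pathway, which makes the activated amino sugars, 14 rose. UAP1, which makes UDP-N-acetylglucosamine, had 872, 880.2 and 873 CPM with androgen and 251, 265 and 243 CPM with vehicle. PGM3, the mutase a step before it, rose by a log2 fold change of 2.06, and NANS, sialic acid synthase, by 1.17. OGT (-0.15) and OGA (-0.24), which add and remove single sugars on nuclear and cytosolic proteins, fell slightly. Among enzymes of mucin-type O-glycans, 11 of 16 rose. ST6GALNAC1, which caps the first sugar with sialic acid, had 167, 153 and 159.9 CPM with androgen and 3.92, 2.24 and 3.18 CPM with vehicle. GALNT3, which starts such chains, fell (-1.31), and GCNT2, a branching enzyme, rose (1.87).

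Lipid synthesis rose in most of its enzymes. Of 25 genes of cholesterol synthesis and its control, 23 rose and 14 were called higher, where 6.54% of all genes were. The median was 1.03. HMGCS1, an early enzyme of the mevalonate route, had 658, 585 and 665 CPM with androgen and 142, 133 and 152 CPM with vehicle, with no overlap. FDFT1, squalene synthase (1.88), and SCAP, the escort protein of the sterol-controlled factors (1.97), were called higher. SREBF2, the factor itself, rose less, from 285, 291 and 306 CPM to 495, 483 and 472 CPM. A CCAAT box was present in 80.0% of 20 promoters of this list, while ATCACCCC, searched for as a sterol element on both strands, was found in 5.0% of them and in 0.483% of all.

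Of 26 genes of fatty acid synthesis, elongation and desaturation, 18 rose and 6 fell, with a median of 0.73. ACSL3, which activates fatty acids for lipid droplets, had 3977, 4389.6 and 4062 CPM with androgen and 235, 241 and 250.2 CPM with vehicle. It gained the most CPM of all genes tested. FASN, fatty acid synthase, had 4397, 5287 and 4775 CPM with androgen and 1095, 1007 and 1263 CPM with vehicle. Elongases parted: ELOVL7 (3.77) and ELOVL5 (2.49) were called higher, whereas ELOVL6 was called lower (-1.01). The same was true of desaturases, with SCD higher (1.43) and SCD5 lower (-1.11). LPIN1, a phosphatase of triglyceride synthesis, rose (1.80), and DGAT2, which makes triglycerides, fell (-0.59). Uptake and oxidation of fatty acids moved less, with 17 of 29 that rose, 9 that fell and a median of 0.16. SLC25A20, the carnitine carrier of mitochondria, was called higher (1.67).

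**Figure D4:**
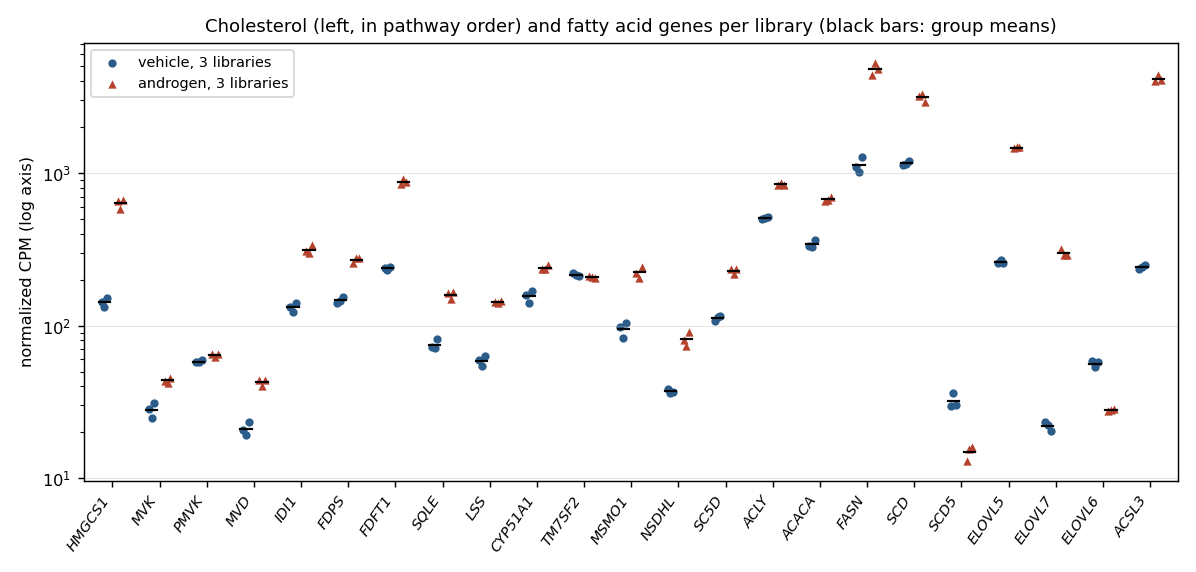
CPM (log scale) of genes of cholesterol and fatty acid synthesis in each of the 3 androgen and 3 vehicle libraries, with 1 point per library and group means as bars. ELOVL6 and SCD5 lie lower with androgen, and ACSL3 shows the widest gap, from at most 250.2 CPM with vehicle to at least 3977 CPM with androgen.

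Central carbon metabolism had members on both sides. Of 25 glycolysis genes 13 rose and 6 fell, which became 11 and 10 with library totals in place of TMM factors. Of 31 genes of the citrate cycle 12 rose and 8 fell, a lead that turned to 9 against 12 with the same totals, and 2 fell when all 9 libraries of the series entered 1 fit. PFKFB2, which sets the level of a glycolytic activator, had 141, 139.6 and 142 CPM with androgen and 35.9, 36.3 and 39.97 CPM with vehicle. HK1, hexokinase (1.35), and SLC2A12, a glucose transporter (1.71), were called higher, while GAPDH fell (-0.45). MPC2, a subunit of the mitochondrial pyruvate carrier, had 1336, 1345 and 1379.7 CPM with androgen and 316, 282 and 293 CPM with vehicle, while its partner MPC1 had a log2 fold change of 0.30 and no longer passed the test with library totals in place of TMM factors.

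Polyamines, which the prostate secretes in large amounts, had their main enzymes raised on both the building and the breakdown side. ODC1, ornithine decarboxylase, had 3270.1, 3205 and 3617 CPM with androgen and 722, 738 and 727 CPM with vehicle. SMS, spermine synthase, had 1092, 1179 and 1280.2 CPM with androgen and 145, 140.4 and 144 CPM with vehicle. SAT1, which acetylates polyamines for breakdown and export, had 1176, 1217 and 1183 CPM with androgen and 91.2, 83.9 and 87.9 CPM with vehicle. None of these groups overlapped. AMD1, which supplies the aminopropyl group, rose (1.39), and AZIN1, an inhibitor of ODC1 degradation, fell slightly (-0.24). Over the 16 genes 12 rose and 3 fell.

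In serine and one-carbon metabolism, 11 of 21 genes fell and 9 rose. GNMT, which uses S-adenosylmethionine to methylate glycine, had 22.6, 27.6 and 23.999 CPM with androgen and 0.993, 0.709 and 0.859 CPM with vehicle (4.84), while MTHFD1, of folate metabolism, fell (-0.68). Zinc, which the prostate accumulates, is moved by SLC39A and SLC30A carriers and bound by metallothioneins. Of 21 genes of this list 14 rose and 6 fell, with a median of 0.25, and the counts became 9 and 7 with library totals in place of TMM factors. SLC39A10, an importer, rose from 50.6, 56.7 and 49.7 CPM to 178, 186 and 189 CPM, and SLC39A8, a further importer, fell from 72.2, 74.4 and 72.9 CPM to 20.6, 23.4 and 23.7 CPM. MT2A, a metallothionein, had 75.9, 72.8 and 75.4 CPM with vehicle and 23.3, 21.6 and 23.8 CPM with androgen. MT1X (-0.86) and MT1G (-1.34), of the same family, fell as well. Among antioxidant genes 14 of 21 rose, led by ABCC1, an exporter of glutathione conjugates (2.12).

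Ribosome genes were lower by small steps. Of 82 cytosolic ribosomal proteins 55 fell and 4 rose, none by 2-fold, with a median of -0.15. With library totals in place of TMM factors 75 fell and 2 rose, and with all 9 libraries in 1 fit 35 fell. RPS2 had 2830.1, 2798 and 2636 CPM with vehicle and 2153, 1999.9 and 1967 CPM with androgen, and the groups did not overlap. Of 43 genes of ribosome biogenesis 26 fell and 5 rose, and those that rose numbered 1 with library totals, 8 with the replicate block, and 3 without androgen replicate 1, vehicle replicate 2 or vehicle replicate 3. FBL, which methylates ribosomal RNA, had a log2 fold change of -0.84, and POLR3G, a subunit of RNA polymerase III, of -1.07. EEF2, the elongation factor, lost the most CPM of all genes tested, from 5788, 6058 and 5604 CPM with vehicle to 4917, 4742 and 4533 CPM with androgen. EEF1A1 (-0.27) and HNRNPA1, an RNA-binding protein of the nucleus (-1.25), were among the next.

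Most autophagy genes and subunits of the vacuolar proton pump were higher. Of 33 autophagy genes 23 rose and 7 fell. WIPI1, which marks the forming autophagosome, had 62.98, 63.1 and 65.1 CPM with androgen and 6.85, 3.82 and 5.41 CPM with vehicle. OPTN, a cargo receptor (2.46), GABARAPL1, which coats the autophagosome (1.23), and SQSTM1, a cargo receptor for ubiquitylated proteins (1.00), also rose, while ATG3, which attaches the coat, fell (-0.54). Of 16 subunits of the vacuolar proton pump 13 rose, with a median of 0.54, among them ATP6V0B (1.04) and ATP6V1G1 (1.02). Of 40 lysosome genes 25 rose and 7 fell, with a median of 0.23. With library totals in place of TMM factors 17 rose and 12 fell, and the median was 0.08. CTSD, an acid protease, had 393, 341 and 331 CPM with androgen and 183, 182 and 174 CPM with vehicle, and CTSH, a further protease, fell (-0.76).

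Signalling genes showed several sets with called members in both directions. Among 21 tested genes of NF-kB signalling and its targets, 15 rose and 9 were called higher, where 6.54% of all genes were. The median was 0.87, and 34 genes of the list were in the table. Members low with vehicle, such as TNFAIP3, RELB and CXCL8, reached the filter through the androgen libraries alone, so that they could hardly fall. TNFAIP3, a ubiquitin-editing inhibitor of the pathway, had 23.8, 21.96 and 21.6 CPM with androgen and 1.67, 2.29 and 2.12 CPM with vehicle. NFKBIA, the inhibitor that binds NF-kB in the cytoplasm, had 154, 151 and 143 CPM with androgen and 34.3, 30.1 and 36.9 CPM with vehicle. RELB (2.92) and NFKB2 (1.96), subunits of the non-canonical route, were called higher, whereas NFKB1, of the canonical route, fell (-0.45). BIRC3, a ubiquitin ligase of this route, rose (2.78), and LIF, a cytokine, fell (-1.68). CXCL8, a chemokine, had 1 count with vehicle and 236 with androgen, a ratio of 216 (95% counting interval 38.4 to 8561). SOCS2, a feedback inhibitor of cytokine and growth hormone receptors, had 60.5, 74.4 and 70.0 CPM with androgen and 6.53, 8.13 and 7.13 CPM with vehicle.

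Insulin and insulin-like growth factor signalling had called members in both directions. IGF1R, the receptor, had 195, 193 and 188 CPM with androgen and 20.5, 15.3 and 14.1 CPM with vehicle. The adaptors parted: IRS2, which links the receptor to its kinases, rose (1.54), and GRB10, which inhibits the receptor, had 772, 868 and 806 CPM with vehicle and 128, 129 and 126 CPM with androgen. PIK3R3, a regulatory subunit of PI 3-kinase, fell (-1.96), INPP4B, a phosphatase of its products, rose (3.31), and SGK1, a kinase downstream, rose (3.53). IGFBP2, a binding protein of the ligands, fell (-1.25). Over the 24 genes 10 rose and 9 fell, and with library totals in place of TMM factors 10 rose and 11 fell.

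**Figure D5:**
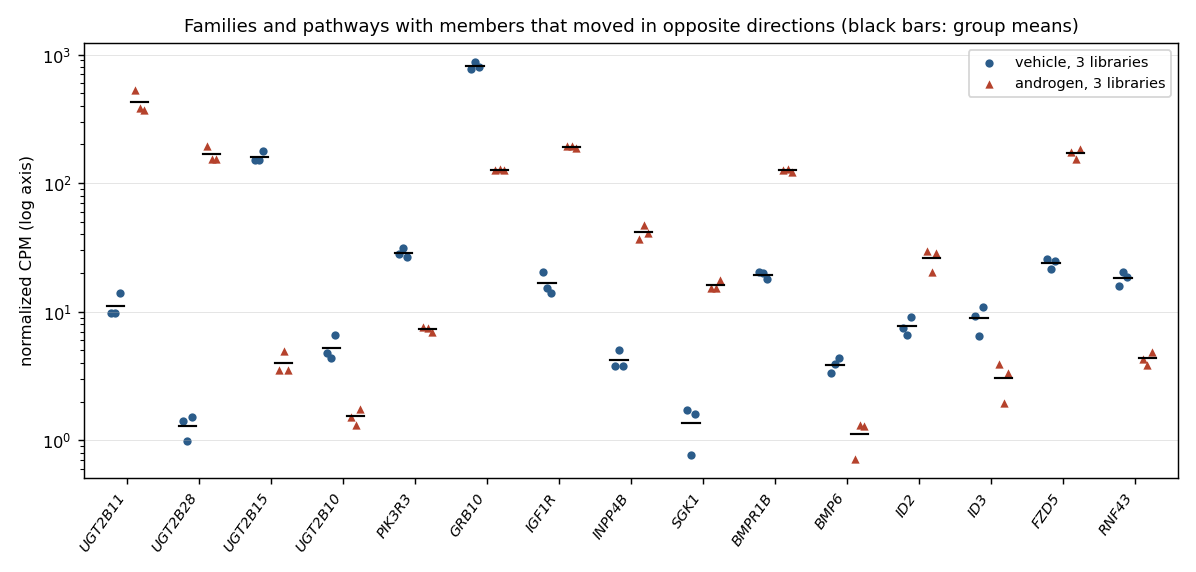
CPM (log scale) in each of the 3 androgen and 3 vehicle libraries for genes of the UGT2B family and of the insulin-like growth factor, BMP and WNT pathways, with 1 point per library and group means as bars. In every gene shown the androgen and vehicle libraries do not overlap, and each family holds genes on both sides.

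In the TGF-beta and BMP families, receptors, ligands and targets had members on both sides. BMPR1B, a type I receptor, had 127, 129 and 123 CPM with androgen and 20.2, 20.03 and 18.04 CPM with vehicle. ID2 rose (1.76) and ID3 fell (-1.52), both being inhibitors of helix-loop-helix factors and known targets. The ligand BMP6 fell (-1.81), and the distant family member GDF15, a stress cytokine, went from 298, 432 and 313 CPM to 2291, 2410.1 and 1537 CPM. Of 31 genes 11 rose and 14 fell, which became 7 and 17 with library totals in place of TMM factors. In the WNT pathway, FZD5, a Frizzled receptor, had 174, 154 and 185 CPM with androgen and 25.6, 21.4 and 24.7 CPM with vehicle, whereas RNF43, which removes Frizzled receptors and shares 68.4% of its exon bases with another annotated gene on the same strand (-2.08), WLS, which carries WNT ligands to the surface (-1.74), and LEF1, a factor of the pathway (-1.27), fell. AXIN2, a common target of the pathway, differed by 0.03 and did not pass the test. Of the 32 genes 10 rose and 13 fell. For Notch, 12 of 22 genes rose, with JAG1, a ligand, at 237, 242 and 226 CPM with androgen and 64.3, 54.3 and 62.7 CPM with vehicle, and HES1, a target, at a log2 fold change of 1.35.

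Among 21 G protein-coupled receptors 6 were called higher and 5 lower, where 6.54% and 7.49% of all genes were. By the adjusted p-value alone 11 rose and 7 fell. Without androgen replicate 2, 7 rose, as 4 of the others no longer reached the filter on low counts. LPAR3, a receptor for lysophosphatidic acid, had 366, 406 and 380.3 CPM with androgen and 45.7, 47.5 and 51.2 CPM with vehicle. PTGER4, a prostaglandin E receptor, rose (4.17), and OR51E1, an olfactory receptor of prostate cells (-2.32), and GPER1, a membrane receptor for estrogen (-1.85), fell. Of 16 immediate early genes 9 rose, among them NR4A1, an orphan nuclear receptor (1.80), and KLF6, a zinc finger factor (1.93), while IER5 fell (-1.42). Of 14 receptor tyrosine kinases 4 rose and 5 fell (3 fell without vehicle replicate 1), with the largest rise beside IGF1R in MERTK, which clears dying cells (2.68). The list of hypoxia genes had 15 of 25 that rose, but EGLN3 (-1.54) and CA12 (-0.65), both well-known targets, fell, and LDHA had a log2 fold change of 0.05 that did not pass the test. Those with the largest rise included ANKRD37, an ankyrin repeat protein (3.26), and LOX, which crosslinks collagen and went from 0.157, 0.546 and 0.101 CPM to 9.46, 13.1 and 6.84 CPM.

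The keratins of the luminal cell rose. KRT8 had 1524, 1596 and 1675 CPM with androgen and 276, 261 and 265 CPM with vehicle, and its partner KRT18 had 1133, 1229 and 1296 CPM and 327, 337 and 332 CPM. KRT19, a further keratin of simple epithelia, had 17.6, 13.1 and 15.3 CPM with androgen and 2.56, 1.15 and 1.72 CPM with vehicle, and 0.995% of its PC3 level is 4.36 CPM. LMNB1, a lamin of the nuclear envelope, fell from 284, 254 and 260.1 CPM to 61.04, 72.5 and 73.5 CPM, and PKP4, a plakophilin of junctions, fell by 1.90 on the log2 scale. Of 34 genes of the actomyosin and microtubule cytoskeleton 19 rose and 8 fell. Among those that rose were TPM1, a tropomyosin (1.55), MYL12A, a myosin light chain (1.58), and ACTB, which went from 1847, 1746 and 1729.5 CPM to 3347, 3198 and 3149.6 CPM. STMN1, which takes microtubules apart, had 246, 249.5 and 247 CPM with vehicle and 62.4, 80.3 and 76.04 CPM with androgen, and TUBA1B, a tubulin, fell (-1.06), whereas TUBA3D, a further tubulin, had 3, 3 and 7 counts in the vehicle libraries and 225, 242 and 304 counts in the androgen libraries. Of the 74-nt stretches of TUBA1B and TUBA3D, 18.8% and 32.9% also occur in other genes, so their shares of reads among tubulins are uncertain.

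Matrix genes were split evenly, with 10 of 22 that rose and 10 that fell. Without any 1 of the androgen libraries 5 of those that rose, low with vehicle, no longer reached the filter on low counts, and the other 5 rose. FN1, fibronectin, had 419, 414 and 456 CPM with vehicle and 100.4, 109 and 117 CPM with androgen, and COL5A2, a fibrillar collagen, fell as well (-3.04). LAMC1, a laminin chain, had 718, 613 and 762 CPM with androgen and 240.2, 229.8 and 234 CPM with vehicle, and the laminin chain LAMA1 rose (4.34). ADAM7, a disintegrin of the male reproductive tract (4.87), SPOCK1, a proteoglycan (4.51), and ADAMTS1, a protease of proteoglycans (1.98), rose. Of 23 integrin and focal adhesion genes 14 rose, among them VCL, vinculin (1.15), and ILK, a kinase-like scaffold (1.23), while TLN2, a talin, fell (-1.88). Tight junction genes rose in 14 of 22 cases, with CLDN12, a claudin, called higher (1.40).

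Cell death genes moved on both sides. BCL2, which blocks the mitochondrial path of apoptosis, had 5.54, 6.49 and 6.82 CPM with vehicle and 0.766, 0.737 and 1.30 CPM with androgen, with a log2 fold change of -2.75 (SE 0.20, adjusted p = 4.5e-08 in edgeR). Its relative BCL2L1, with the same role, rose from 104, 101 and 102 CPM to 229.9, 209.5 and 207 CPM. BMF (-1.58) and BID (-1.03), which promote death, fell. Over 27 genes 11 rose and 9 fell, and with library totals in place of TMM factors 8 rose and 14 fell. Interferon-stimulated genes were also split, with 10 of 24 that rose and 7 that fell (4 when all 9 libraries of the series entered 1 fit). ISG20, an exonuclease, was called higher (1.71) and OAS3, which makes an antiviral signal, lower (-1.19).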

How the data were processed

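RNA was sequenced by the authors from 3 androgen-treated and 3 vehicle-treated LNCaP libraries. Per the labels, which carry the submitters' processing notes, adapters were trimmed with cutadapt 4.1, reads were aligned to hg38 with STAR 2.7.7a and duplicates were removed with UMI-tools 1.1.2. The study's methods name the same tools but other versions of cutadapt and STAR. The authors deposited whole-number read counts per gene, not normalized. Each of the 253944 values of the table was equal to the forward-strand count in the STAR output, and 0 columns were left unused. Reads not on a gene, 23.5% to 25.4% per library, stayed out of library sizes, and at most 2.67% of reads on genes lay on the reverse strand.

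Genes with more than 3 CPM in at least 3 of the 6 libraries were tested with the quasi-likelihood F test of edgeR 4.0.16 (R 4.3.3) with TMM factors, and the Benjamini-Hochberg adjustment ran over all 11697 genes. The study used the likelihood ratio test of edgeR with a batch term. That test was run as an alternative, without a block and with the replicate number as a block. The study's batches are not named, so its own model could not be repeated. Same-numbered libraries deviated together (correlations of 0.20, 0.23 and 0.21 over 11632 genes, against -0.24 to 0.04 for different numbers). Deviations were taken from group means, so positive values for the same numbers bring negative ones on balance for different numbers. The replicate numbers were used as a block in alternatives only, and the values reported come from the unpaired test. On simulated data with 200 changed genes among 11697, the test recovered 107 of 107 with a simulated log2 fold change of 1.5 in either direction. It recovered 93 of 93 with one of 2, with 0 false calls. A call there also required a 2-fold change, so counts by the adjusted p-value alone were not covered. The simulated libraries were drawn independently, and far fewer genes changed than in the data. Shared deviations of replicates and the choice of scaling were therefore not tested. Floors and intervals cover counting error only.

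The members and lists were chosen with earlier results of these data known. In each list, up to 5 members with the largest change past the test, and members needed to say what a list holds, are named. Further named are genes with the largest rise or fall among those above 3 CPM in every library, those that gained or lost the most CPM, and those at the floor in 1 group. Some of these are not reported here. PSMC3IP, MPC1 and the genes given as exceptions were chosen after their values were seen. Gene locations are from GENCODE 44, and promoters from RefSeq were found for 9514 (81.3%) of the genes, 195 of them through an older symbol. Lists are described by counts and medians, without a set test. Over 10% of the 74-nt stretches of KRT6B, CTSD, PIK3R3, RPS2, AXIN2, SRP19, PDIA5, CLDN12, SMS, STEAP1, FOLH1, MT1X and EEF1A1 also occur in transcripts of other genes, so their counts may miss or share reads.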

Additional observations from a re-analysis of the deposited data

How the results depend on the processing

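The counts of calls were recomputed under 19 alternative settings, 2 of them (library totals without TMM factors, and leaving out replicate 1 of both groups) chosen after seeing the data. Without a filter on low counts 20429 genes were tested and 2941 were called, 1361 higher and 1580 lower, since more genes entered the test. A test against a fold change of 2, which is stricter by construction, passed 595 genes higher and 633 lower. Under the other settings the number called stayed within 1.5 times the reported 1641. Leaving out each library in turn gave between 1404 and 1551 calls, of which 622 to 746 were higher and 658 to 911 lower, and by the adjusted p-value alone 3969 to 4149 genes rose and 3983 to 4265 fell. The filter still asked for 3 libraries above 3 CPM, so genes detected in 1 group alone left the test with a library of that group. Without replicate 1 of both groups, which held the most transcripts of PC3 markers, 1243 genes were called. With the replicate block in place of the unpaired test 1638 genes were called, 763 higher and 875 lower, and no named gene crossed the adjusted p-value threshold under the block. The Wald test of DESeq2 called 1636 genes. Library totals without TMM factors moved the share of higher genes among those called from 46.6% to 35.6%.

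Of 229 named genes past the test, 224 kept their direction and their side of the threshold under every setting compared for them. The stricter test against a minimum fold change was left out of this comparison, since changes smaller than that fold cannot pass it. Many named genes were chosen for a large change past the test, so their stability was in part set by that choice. CDKN1A and STEAP2 no longer passed with library totals without TMM factors or with all 9 libraries in 1 fit, MPC1 with the former, and OGT and HOXB13 with the latter. Of 5 named genes not past the test, ATF4 passed with library totals without TMM factors (-0.22) and FOXA1 likewise (-0.13), both then lower. The cause was not tested. Genes at a few CPM are limited by depth, where a count of 0 allows up to 0.172 CPM.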

Other observations

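Other gene families, set by their names rather than by a pathway, also held members on both sides. Of 434 zinc finger genes with the symbol ZNF, 213 (49.1%) fell and 55 (12.7%) rose, against 37.8% and 37.1% of all genes. Of these 434, 18 were called lower and 5 higher, smaller shares than the 7.49% and 6.54% of all genes. The median log2 fold change was -0.17, against -0.01 for all genes. With library totals in place of TMM factors 280 fell and 33 rose. Of 28 kinesins 19 fell and 5 rose, or 3 with library totals or without vehicle replicate 3. The mitotic motors KIF11 and KIF23 fell, by 1.91 and 1.78 on the log2 scale, while the transport motors KIF5C (1.51) and KIF13B (1.13) rose. KIF5C had 88.5, 95.5 and 94.6 CPM with androgen and 34.9, 29.9 and 33.2 CPM with vehicle, with no overlap between the groups. Of 183 genes of the SLC families of membrane carriers, 20 were called higher and 13 lower, where 6.54% and 7.49% of all genes were. By the adjusted p-value alone 96 rose and 52 fell. This lead was lost with library totals, with 75 that rose, 71 that fell and a median that moved from 0.17 to 0.02. Of 35 proteasome subunits and assembly factors left when PSMC3IP, which is no proteasome gene, is set aside, 27 rose and 1 fell. Over all 36, with PSMC3IP, 27 rose and 2 fell, which became 17 and 9 with library totals. PSMD8, a subunit of the lid of the regulatory particle, had 573, 538 and 563 CPM with androgen and 239, 225 and 223 CPM with vehicle, a log2 fold change of 1.28.

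Of 8 HOX genes, which give cells their position along the body, 6 fell and 4 were called lower, where 7.49% of all genes were. HOXC9 had 11.03, 11.95 and 10.3 CPM with vehicle and 4.41, 4.03 and 3.89 CPM with androgen, HOXA10 had a log2 fold change of -1.19, and HOXB13, the prostate member, fell less (-0.37). Among 24 host genes of small nucleolar RNAs 16 fell and 1 rose, led by SNHG31 (-2.96) and SNHG3 (-1.34). Of 64 long intergenic RNA genes with the symbol LINC, 34 fell and 11 rose (5 with library totals and 7 without vehicle replicate 1), and LINC01133 went from 21.9, 21.8 and 22.5 CPM to 4.55, 4.32 and 4.39 CPM. Axon guidance genes included EPHA3, an ephrin receptor, which fell from 57.2, 75.2 and 85.2 CPM to 15.5, 19.02 and 24.5 CPM, and ROBO1, a receptor for SLIT proteins (-1.18). Of 25 genes of this list 11 fell and 7 rose. Among 27 potassium and calcium channel genes 10 rose and 10 fell, which became 8 and 15 with library totals. KCNMA1, a calcium-activated potassium channel, had 197, 229 and 196 CPM with androgen and 32.8, 40.6 and 35.7 CPM with vehicle, TRPM8, the cold receptor of the prostate, rose (1.59), and KCNJ3, an inward rectifier, had 3, 1 and 5 counts in the androgen libraries and 117, 159 and 182 counts in the vehicle libraries.

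Mitochondrial lists did not show a direction that held under both scalings. Of 76 mitochondrial ribosomal proteins 24 rose and 20 fell, which became 15 and 40 with library totals in place of TMM factors. Of 38 complex I subunits 18 rose and 4 fell, which became 11 and 15. The neuronal list held SYP, a synaptic vesicle protein, at 5.09, 5.26 and 5.29 CPM with androgen and 2.14, 1.47 and 1.87 CPM with vehicle (1.50), and NLGN1, a synaptic adhesion protein, at 0.856, 1.62 and 1.60 CPM with androgen and 7.53, 10.5 and 10.3 CPM with vehicle (-2.81). Enzymes and core proteins of heparan sulfate had 7 of 23 members that rose and 11 that fell, or 4 and 14 with library totals.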
